A study of Mus musculus with 16 samples.

Results

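The cholesterol synthesis and SREBP2 pathway is followed here through 28 genes, out of 47643 in the count files. The members were taken by name, step by step along the route: 20 enzymes that lead from acetyl-CoA to cholesterol, 5 genes that control the transcription factor SREBP2 and 3 genes that move sterols inside the cell. All 28 were found by their Ensembl identifiers in every library, and other enzymes of the route were not analysed here. RNA was counted from its 3' ends by QuantSeq in 16 libraries, all from wild-type C57BL/6 mice. The groups were cultures grown from 2 pools of lung lavage (pool 1 at passages 8 and 13, pool 2 at passages 5 and 10), alveolar macrophages of single mice grown ex vivo (mexAM), bronchoalveolar lavage cells (BALF), macrophages derived from bone marrow (BMDM) and peritoneal lavage cells (PLF). The last 4 groups each held 3 libraries, from mice 1, 2 and 4, and the same mouse number stands for the same animal in each group. The sources used here do not give the passage of mexAM, the culture media, the number of animals in a pool or the age and sex of the mice. The lavage groups are whole cell harvests as far as the labels say. Values given in threes below are for mice 1, 2 and 4, and values given in pairs are for pools 1 and 2.

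Cells make cholesterol from acetyl-CoA through mevalonate, the isoprenoid diphosphates, squalene and lanosterol. SREBP2, encoded by Srebf2, is made as a membrane protein of the endoplasmic reticulum. When membranes are low in sterol its escort Scap carries it to the Golgi, proteases release its active part, and that part switches on the genes of synthesis and uptake. When sterol is plentiful the Insig proteins hold Scap back and transcription of the route falls. Alveolar macrophages are known for taking up and breaking down the cholesterol-rich surfactant of the lung.

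SREBP2 acts at short promoter elements, and CCAAT boxes, bound by NF-Y, often stand close to them. RefSeq promoter windows of GRCm38.p6 were matched by symbol for 23 of the 28 members, while Fdps, Fdft1, Sqle, Stard4 and Npc1 are named only. Searches ran over the 250 bases before the RefSeq start site, and the bases upstream of any exon in GENCODE M21 are printed for 4 of the 23, 5' to 3' on the gene's own strand. Hmgcs1 is shown for its sterol element, Lbr as the enzyme gene whose level in BALF was below that of every other group, and Insig1 and Insig2 as the pair in which Insig1 was called in several comparisons and Insig2 in none. Capitals mark CCAAT boxes, which read ATTGG when they lie on the other strand, and in Hmgcs1 also the sterol element spelled TCACNCCAC.
Hmgcs1 (chr13:119690101-119690350, plus strand): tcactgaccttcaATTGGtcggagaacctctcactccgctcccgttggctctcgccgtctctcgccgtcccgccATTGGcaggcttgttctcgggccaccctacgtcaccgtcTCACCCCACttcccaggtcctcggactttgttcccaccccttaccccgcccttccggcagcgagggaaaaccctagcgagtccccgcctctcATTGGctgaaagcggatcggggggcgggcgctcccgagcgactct
Lbr (chr1:181842402-181842651, minus strand): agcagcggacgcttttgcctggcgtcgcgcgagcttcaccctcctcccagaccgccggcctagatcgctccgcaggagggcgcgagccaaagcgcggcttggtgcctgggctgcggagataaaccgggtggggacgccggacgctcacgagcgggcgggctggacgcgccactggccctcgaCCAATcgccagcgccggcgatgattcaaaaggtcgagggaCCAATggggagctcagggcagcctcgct
Insig1 (chr5:28071162-28071362, plus strand): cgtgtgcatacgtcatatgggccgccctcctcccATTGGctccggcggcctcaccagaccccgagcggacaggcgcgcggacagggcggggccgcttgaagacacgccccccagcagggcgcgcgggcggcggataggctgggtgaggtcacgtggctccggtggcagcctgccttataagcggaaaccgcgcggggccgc
Insig2 (chr1:121332590-121332839, minus strand): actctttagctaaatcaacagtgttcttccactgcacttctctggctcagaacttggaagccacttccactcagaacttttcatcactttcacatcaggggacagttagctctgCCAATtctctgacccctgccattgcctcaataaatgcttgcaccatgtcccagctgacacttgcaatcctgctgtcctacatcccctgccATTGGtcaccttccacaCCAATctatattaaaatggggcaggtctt
Both strands were searched, and in these windows no motif overlapped another. The spelling TCACNCCAC was in the window of 1 of 23 members, Hmgcs1, and in 1.22% of the 27025 genes of the table. CCAAT stood before at least 1 listed start of 20 of 23 members (87.0%), against 37.5% of all genes. The GC box GGGCGG stood there in 21 of 23 members (91.3%), against 35.4% of all genes. All members are protein-coding and were counted in these libraries, while the 27025 genes were not restricted in either way. The shares are therefore not matched and do not single out this pathway. These are matches of letters in a short window, and a gene without a match may carry an element that is spelled otherwise or lies elsewhere.

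Each library held between 827791 and 2884679 counts in genes. Levels below are CPM, counts scaled so that every library sums to 1000000, and 1 count equals 0.347 to 1.21 CPM. The log2 fold changes come from edgeR's quasi-likelihood fit and F test with its own scaling (TMM). The ± is a standard error derived from that test, the absolute log2 fold change divided by the square root of F. A gene was called when its Benjamini-Hochberg adjusted p from that test, over all genes of the comparison, was under 0.05. Mitochondrial genes took 8.94% to 16.4% of the counts. As sums, the markers set the groups apart as labelled. The 10 alveolar macrophage markers summed to 6553 to 10075 CPM in mexAM and 9143 to 13115 in BALF, against 291 to 470.1 in BMDM and 295 to 351 in PLF, and Gata6 of peritoneal macrophages was counted in PLF alone. Chil3 made up much of the alveolar sum, with 6553 to 10476 CPM in BALF. Not every marker followed the sum. Itgax was at 40.0 to 64.7 CPM in mexAM, against 453 to 497 in BALF. Pparg in mexAM of mouse 1 (17.4 CPM) was below all BMDM libraries (21.9 to 34.3). The 6 bone marrow markers summed to 2459 to 3825 CPM in BMDM and 549 to 708 in PLF. The sum of the 5 markers of all macrophages was lowest in PLF, at 948 to 1016 CPM. Mrc1, Cd68 and Mertk were each lowest there, and Adgre1 and Fcgr1 were not. Adgre1 was at 648 to 719 CPM in PLF, against 174 to 236 in BALF and 196 to 278 in mexAM. Fcgr1 was at 0.892 to 1.85 CPM in PLF and overlapped mexAM, at 0.581 to 1.46. Markers of other cells were also counted. The 6 B cell markers summed to 853 to 1118 CPM in PLF and the 6 mast cell markers to 1895 to 2074, against at most 14.1 and 7.97 CPM in any library of the other groups. The 6 neutrophil markers summed to 1946 to 5073 CPM in BMDM, 313 to 350.5 in the pools at the later passage, 393 to 496 at the earlier one and 353 to 791 in mexAM, against 112 to 137 in BALF, and at most 87.4 in PLF. In mexAM most of that sum was Cxcr2 (159.7 to 384 CPM, against 5.41 to 11.6 in BALF) and S100a8 (97.2 to 390.3 CPM, against 40.8 to 53.8 in BALF), while Ly6g was at 0 in mexAM. The 5 red cell markers summed to 34.8 to 633 CPM in BALF. Such shares of other cells touch each comparison of these groups below, and their part in the results was not tested. In bulk RNA, fewer cells of a type and less RNA per cell cannot be told apart.

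Between mexAM and BALF, the question is how alveolar macrophages in culture differ from the lavage cells of the same mice. Almost every step from acetyl-CoA to cholesterol was higher in culture. Of the 19 enzymes tested, 17 rose, Ggps1 fell and Hsd17b7 was not called. The 20 enzymes together took 4465, 4122 and 3759.5 CPM in mexAM, against 1085, 1276 and 1201 CPM in BALF. The control genes moved less: Insig1 rose, and Srebf2, Scap, Insig2 and Mbtps1 were not called. Of the transport genes, Stard4 rose and Npc1 and Npc2 were not called. In all, 19 of 27 tested members were called higher in mexAM, where 15.2% of all genes were, and 1 was called lower, where 14.8% of all genes were. The median log2 fold change was 1.19 over the members and 0.01 over all 10011 genes tested. Idi1, with 86 counts in all libraries, did not pass the filter on low counts. Mvk and Tm7sf2 passed it only because of the mexAM libraries, where they were high. In the fit with the pools they passed only because of the cultures. Their calls as higher in cultures, counted here and in the later comparisons, are therefore no separate support.

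Calls near the threshold changed when single libraries were left out. For Ggps1 (-0.81 ± 0.26, adjusted p = 0.0259) the call ended with library totals alone (-0.61), when the BALF library of mouse 2 (-0.69) or 4 (-0.73) was left out, and when the mexAM library of mouse 1 (-0.76) or 2 (-0.81) was. That of Ebp (0.67 ± 0.23, adjusted p = 0.0347) ended when any 1 BALF library was left out (mouse 1, 0.73; mouse 2, 0.74; mouse 4, 0.56) or the mexAM library of mouse 1 (0.49). BALF of mouse 1 held the fewest red cell counts. With it as the only BALF library, a fit chosen after seeing the data, 15 members were called, and Ggps1 (-0.39), Fdft1 (0.86), Msmo1 (0.90), Ebp (0.57) and Insig1 (1.09) no longer were. Beside the enzymes, the 12 proliferation markers summed to 718 to 1013 CPM in mexAM, against 297 to 445 CPM in BALF, with 7 called higher and 0 lower. Their part in the result was not tested.

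**Figure D1:**
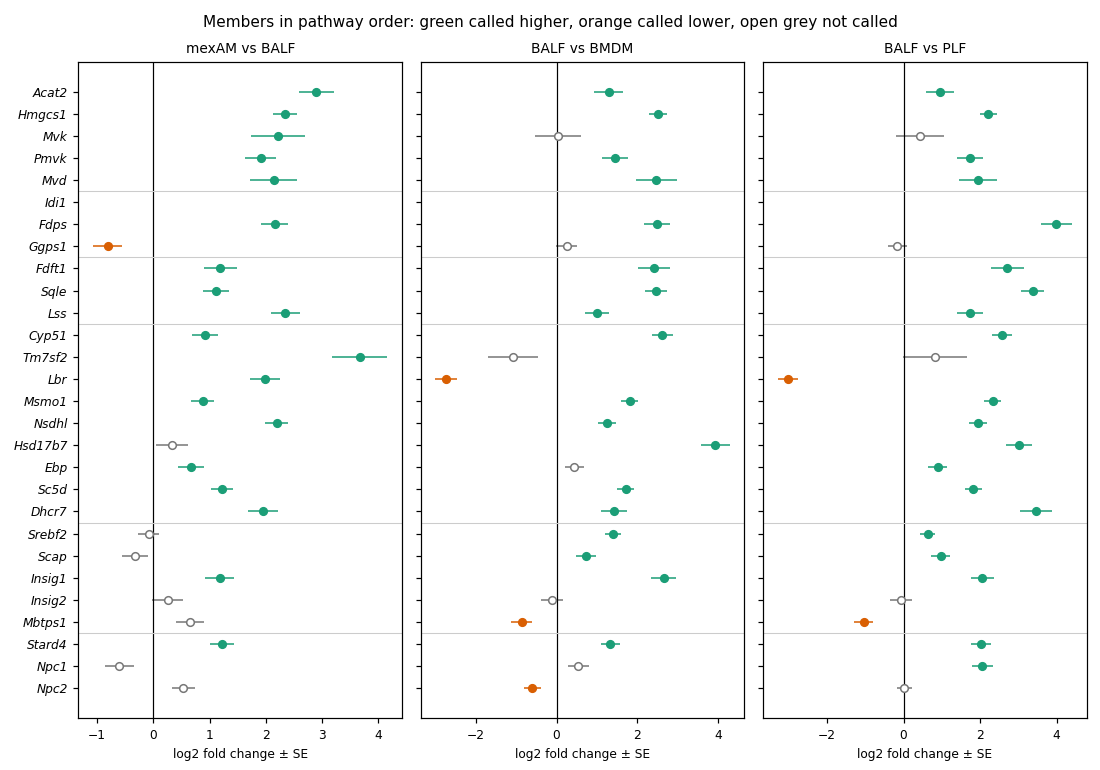
Log2 fold change ± SE of the members in pathway order, from top to bottom, for mexAM against BALF (left), BALF against BMDM (middle) and BALF against PLF (right), with grey lines between the steps. Filled green points were called higher and orange points lower in the first group; Idi1 was not tested. Lbr lies at 1.99 in the left panel and at -2.74 and -3.02 in the other panels.

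Lavage cells of the lung already stood above BMDM and PLF in most of the enzymes. In BALF against BMDM, 14 enzymes rose and Lbr fell. With the control and transport genes, 18 of 27 members were called higher (18.2% of all genes) and 3 lower (19.3% of all genes). The 3 were Lbr, the protease gene Mbtps1 and Npc2. The members' median was 1.33, against -0.03 over all genes. In BALF against PLF, 15 enzymes rose and Lbr fell, 20 of 27 members were called higher (19.5% of all genes) and 2 lower, Lbr and Mbtps1 (20.8% of all genes). The members' median was 1.82, against -0.01 over all genes.

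In mexAM against BMDM, 20 of 27 members were called higher (21.5% of all genes) and Lbr alone lower (23.0% of all genes), with a median of 2.93. In mexAM against PLF, 23 of 27 were called higher (28.4% of all genes), and Lbr and Ggps1 lower (29.6% of all genes), with a median of 3.25. BMDM and PLF differed in fewer members: 8 of 27 were called higher in BMDM (18.4% of all genes) and Srebf2 alone lower (18.0% of all genes). The median there was 0.30. These comparisons share libraries with each other, so their counts are not independent. Scaling by library totals alone moved the median of all genes by over 0.1 in some comparisons. It was 0.22 in mexAM against BALF, with 2229 genes higher and 1083 lower instead of 1521 and 1485, and 21 members higher and 0 lower. It was -0.31 in BALF against BMDM, with 1225 genes higher and 2768 lower instead of 1818 and 1929, and 16 members higher and 3 lower. It was -0.26 in BALF against PLF, with 1409 genes higher and 2821 lower instead of 1952 and 2078, and 18 members higher and 2 lower.

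A strict order over libraries was also counted. With all 3 mexAM libraries above all 3 BALF libraries, and these above all 6 libraries of BMDM and PLF, 14 of 27 tested members were in order. They were Hmgcs1, Pmvk, Mvd, Fdps, Fdft1, Sqle, Lss, Cyp51, Msmo1, Nsdhl, Sc5d, Dhcr7, Insig1 and Stard4. Over all genes tested, 2.81% were in this order. Fdps, Fdft1 and Dhcr7 passed the filter on low counts only because of mexAM and BALF, where they were high. Their places in this order, and their calls as higher in mexAM or BALF than in BMDM or PLF, are therefore no separate support.

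For single genes, statements on overlap and tiers below cover mexAM, BALF, BMDM and PLF unless the pool cultures are named. All 5 of the first enzymes rose in mexAM against BALF. Acat2 (ENSMUSG00000023832, chr17:12942890-12960747, minus strand), the thiolase that joins acetyl-CoA units, had 219, 189 and 157 CPM in mexAM, 30.6, 8.12 and 23.9 in BALF, 10.6, 10.97 and 11.03 in BMDM and 9.73, 17.8 and 13.6 in PLF. BALF of mouse 2 lay below every BMDM library, so BALF overlapped both BMDM and PLF, while mexAM overlapped none of the other 3. The log2 fold change was 2.90 ± 0.31 for mexAM against BALF (adjusted p = 2.73e-06) and 1.29 ± 0.36 for BALF against BMDM, a call lost without BALF of mouse 1 (0.90). For BALF against PLF it was 0.95 ± 0.36 (adjusted p = 0.0444). That call was lost with mouse as a block (0.91, adjusted p = 0.0663), under DESeq2 (0.89) or its size factors (0.90), with library totals alone (0.69) and in a fit of the 2 groups (0.92). It was also lost without 1 library each of BALF (mouse 1, 0.54, or 4, 0.86) and of PLF (mouse 1, 0.79, or 4, 0.94).

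Hmgcs1 (ENSMUSG00000093930, chr13:119690379-119708260, plus strand), which adds acetyl-CoA to make HMG-CoA, had 1531, 1585 and 1451 CPM in mexAM, 229, 272 and 281 in BALF, 60.9, 68.6 and 36.8 in BMDM and 59.1, 80.3 and 61.6 in PLF. The groups stood in 3 separate tiers, with BMDM and PLF together in the lowest. Its log2 fold change was 2.34 ± 0.22 for mexAM against BALF, 2.52 ± 0.23 for BALF against BMDM and 2.22 ± 0.22 for BALF against PLF, with adjusted p = 5.06e-07, 1.33e-07 and 4.61e-07. The bases printed above for Hmgcs1 hold 3 CCAAT boxes beside the sterol element.

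The mevalonate enzymes did not all follow this tiered pattern. Mvk, mevalonate kinase (ENSMUSG00000041939, chr5:114444269-114460591, plus strand), had 27.3, 17.03 and 21.4 CPM in mexAM, 3.60, 0 and 7.72 in BALF, 5.80, 3.43 and 4.90 in BMDM and 3.24, 4.46 and 3.08 in PLF. The 0 in BALF of mouse 2 allows up to 3.04 CPM, the value of 3 counts. Of the 4 groups only mexAM stood apart (2.21 ± 0.48 against BALF, adjusted p = 0.00240), and BALF was not called against BMDM (0.04 ± 0.58, opposite in sign to the mean CPM of 3.77 ± 3.86 in BALF and 4.71 ± 1.20 in BMDM, SD, n = 3 each) or PLF (0.43 ± 0.63). Pmvk, the next kinase, ranged over 83.6 to 118 CPM in mexAM, 18.3 to 27.01 in BALF, 7.54 to 12.1 in BMDM and 4.32 to 13.4 in PLF. Mvd, the decarboxylase that makes isopentenyl diphosphate, had 330.5, 184 and 171 CPM in mexAM, 31.8, 28.4 and 73.3 in BALF, 8.22, 10.97 and 10.4 in BMDM and 3.89, 23.2 and 16.03 in PLF. Both genes were in separate tiers, and for Mvd mouse 1 was high within mexAM and mouse 4 within BALF. Against BALF, mexAM was higher by 1.91 ± 0.28 in Pmvk and by 2.14 ± 0.42 in Mvd. With BALF of mouse 1 alone Mvd was not called in BALF against PLF (1.46).

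The isoprenoid enzymes split at the branch point. Idi1, the isomerase, was close to the limit of these libraries, at 4.65, 7.30 and 5.35 CPM in mexAM, 3.60, 0 and 3.09 in BALF, 0, 0.686 and 0.613 in BMDM and 0, 0.892 and 0 in PLF. Over the 3 libraries of each group that was 36 counts in mexAM, 10 in BALF, 2 in BMDM and 1 in PLF. The ratio of mexAM to BMDM was 15.0 (95% interval 3.85 to 128) and that of mexAM to PLF was 24.9 (95% interval 4.19 to 1009), intervals that cover counting error only. Fdps (ENSMUSG00000059743, chr3:89093588-89101959, minus strand), which makes farnesyl diphosphate, had 106, 86.6 and 116 CPM in mexAM, 16.8, 18.3 and 24.7 in BALF, 4.35, 5.49 and 3.06 in BMDM and 0.649, 2.68 and 1.23 in PLF. None of these groups overlapped, and its difference between mexAM and PLF, 6.15 ± 0.35, was the largest log2 fold change among the members in these comparisons. That value rests on 6 counts in PLF. BALF exceeded BMDM by 2.49 ± 0.32 and PLF by 3.99 ± 0.41.

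Ggps1 (ENSMUSG00000021302, chr13:14050659-14063488, minus strand) draws farnesyl diphosphate away from sterols to make geranylgeranyl diphosphate for the lipid anchors of small GTPases. It ran the other way: 19.7, 21.4 and 24.3 CPM in mexAM, 24.6, 40.6 and 36.3 in BALF, 35.3, 44.6 and 23.3 in BMDM and 43.5, 49.9 and 40.1 in PLF. All mexAM libraries were below all BALF and all PLF libraries, and mexAM overlapped BMDM through the BMDM library of mouse 4. In mexAM against PLF it fell (-0.97 ± 0.25, adjusted p = 0.00324), and against BMDM it was not called (-0.57 ± 0.25, adjusted p = 0.0793) except without BMDM of mouse 4 (-0.77). Exons of Ggps1 overlap Arid4b on the opposite strand. The sources used here do not say whether counting used strand, so reads of such pairs may be mixed.

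From farnesyl diphosphate to lanosterol, all 3 enzymes were in separate tiers. Fdft1, squalene synthase, had 22.6, 38.4 and 33.8 CPM in mexAM, 15.02, 11.2 and 9.26 in BALF, 3.38, 2.74 and 1.84 in BMDM and 1.95, 2.68 and 1.85 in PLF. Its exons overlap those of Ctsb, a cathepsin gene with many more counts, on the opposite strand, so its level is uncertain. Sqle (ENSMUSG00000022351, chr15:59315077-59331192, plus strand), squalene epoxidase, an oxygen-dependent enzyme held to be a control point of the route, had 211, 156 and 171 CPM in mexAM, 65.5, 75.1 and 74.1 in BALF, 19.8, 15.8 and 11.03 in BMDM and 4.54, 7.13 and 12.3 in PLF. Lss (ENSMUSG00000033105, chr10:76531588-76557138, plus strand), which closes the rings of lanosterol, had 100.5, 112 and 104 CPM in mexAM, 16.8, 22.3 and 15.4 in BALF, 12.6, 7.54 and 12.3 in BMDM and 3.24, 10.7 and 6.16 in PLF.

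Sqle and Lss placed the step in level at different points. For Sqle the log2 fold change was 1.12 ± 0.23 for mexAM against BALF, 2.47 ± 0.27 for BALF against BMDM and 3.37 ± 0.30 for BALF against PLF. For Lss it was 2.35 ± 0.26, 1.00 ± 0.30 and 1.73 ± 0.34 in the same comparisons. The call of Lss for BALF against BMDM (adjusted p = 0.0153) was lost with library totals alone (0.71), without BALF of mouse 2 (0.87), without BMDM of mouse 2 (0.82) and with BALF of mouse 1 alone (0.92). Whether these fold changes differ between the genes was not tested.

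**Figure D2:**
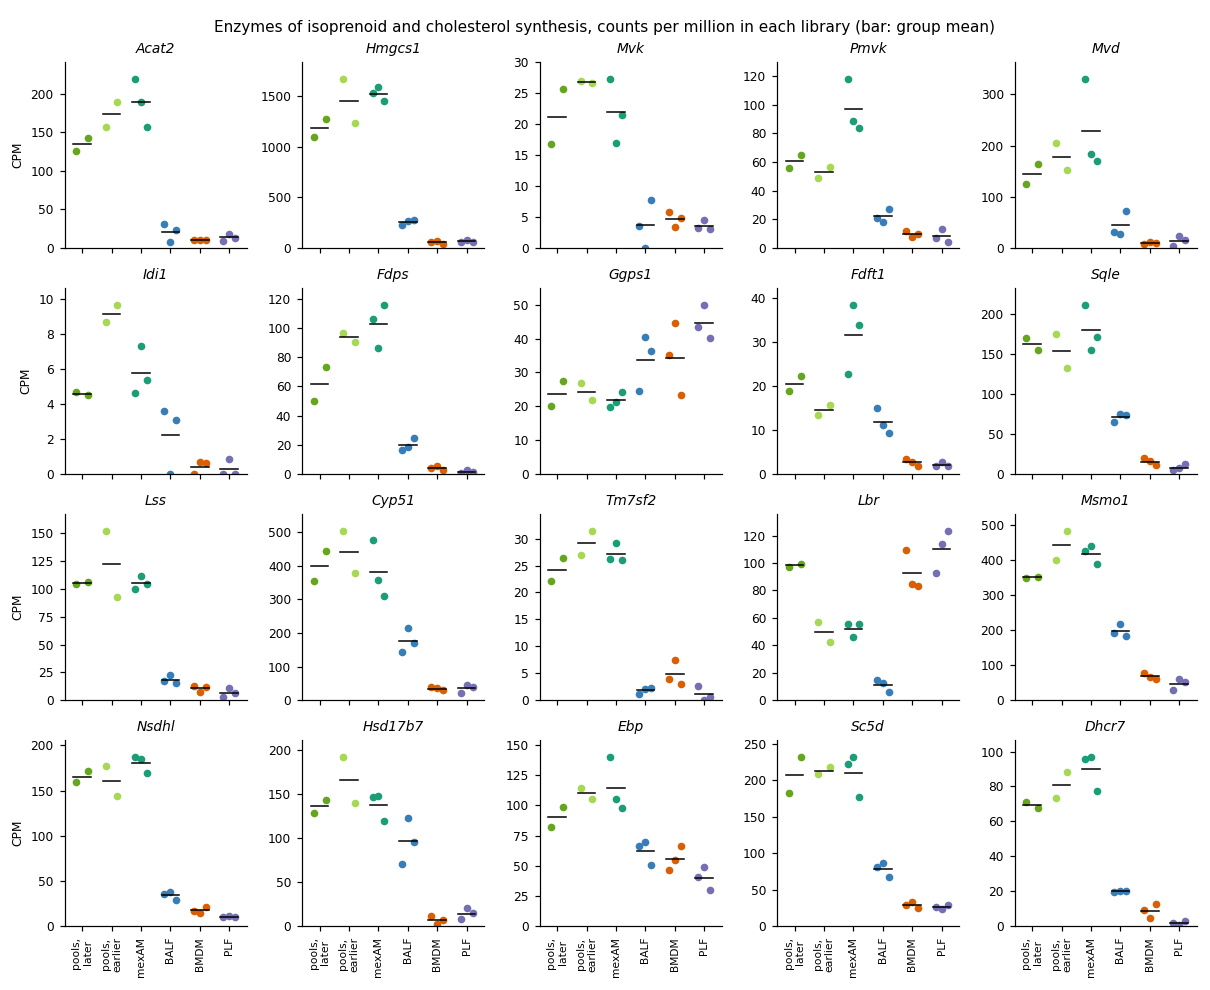
CPM of the 20 enzymes in each library, one panel per gene with its own axis from 0, for later and earlier passages of the pools, mexAM, BALF, BMDM and PLF. Each point is 1 library and each bar the group mean. In Hmgcs1 the 3 mexAM points lie at 1451 to 1585, above BALF at 229 to 281, whereas in Lbr BALF holds the lowest points of all groups, at 6.17 to 15.02.

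The enzymes that turn lanosterol into cholesterol began with Cyp51 (ENSMUSG00000001467, chr5:4081145-4104746, minus strand), the demethylase that opens this stretch. It had 476, 357 and 311 CPM in mexAM, 144, 214 and 171 in BALF, 38.7, 34.97 and 30.03 in BMDM and 21.4, 45.5 and 38.8 in PLF. Msmo1 (ENSMUSG00000031604, chr8:64718139-64733792, minus strand), an oxidase of the methyl groups that remain, had 426, 439 and 388 CPM in mexAM, 192, 217 and 183 in BALF, 77.8, 66.5 and 60.1 in BMDM and 29.2, 59.8 and 53.01 in PLF. Both stood in separate tiers with the wider gap between BALF and the lower groups. For Cyp51 the log2 fold change was 0.92 ± 0.23 for mexAM against BALF, 2.62 ± 0.25 for BALF against BMDM and 2.58 ± 0.26 for BALF against PLF. For Msmo1 the same comparisons gave 0.88 ± 0.20, 1.82 ± 0.21 and 2.32 ± 0.22. Exons of Cyp51 overlap Akap9 on the opposite strand.

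Nsdhl and Hsd17b7, which act next to each other in removing those methyl groups, differed in pattern. Nsdhl (ENSMUSG00000031349, chrX:72918557-72958514, plus strand), the dehydrogenase, had 187, 185 and 169.7 CPM in mexAM, 36.04, 37.5 and 29.3 in BALF, 16.9, 14.4 and 21.5 in BMDM and 9.73, 11.6 and 10.5 in PLF. Hsd17b7 (ENSMUSG00000026675, chr1:169949535-169969241, minus strand), the ketone reductase, had 146, 148 and 119 CPM in mexAM, 70.3, 123 and 95.7 in BALF, 11.6, 2.74 and 7.35 in BMDM and 7.79, 20.5 and 14.8 in PLF. For Hsd17b7 mexAM and BALF overlapped, both far above the other groups. Its log2 fold change was 0.33 ± 0.28 for mexAM against BALF (adjusted p = 0.404), 3.93 ± 0.36 for BALF against BMDM and 3.01 ± 0.34 for BALF against PLF. That of Nsdhl was 2.19 ± 0.20, 1.24 ± 0.22 and 1.94 ± 0.24.

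The last 3 enzymes are Ebp, Sc5d and Dhcr7. Ebp, the sterol isomerase, had 140.0, 105 and 98.02 CPM in mexAM, 66.1, 70.01 and 50.9 in BALF, 46.4, 54.9 and 66.2 in BMDM and 40.9, 49.1 and 30.2 in PLF. It was called in mexAM against BALF, with the limits given above, and in BALF against PLF (0.90 ± 0.24), and was not called in BALF against BMDM (0.44 ± 0.24, adjusted p = 0.155). Sc5d, the desaturase after it, ranged over 177 to 232 CPM in mexAM, 67.1 to 86.2 in BALF, 24.5 to 33.6 in BMDM and 23.2 to 28.97 in PLF. Its log2 fold change was 1.22 ± 0.20 for mexAM against BALF, 1.71 ± 0.21 for BALF against BMDM and 3.04 ± 0.22 for mexAM against PLF. Dhcr7 (ENSMUSG00000058454, chr7:143823145-143848410, plus strand), the reductase that yields cholesterol, had 95.8, 96.8 and 77.4 CPM in mexAM, 19.8, 20.3 and 20.1 in BALF, 9.19, 4.80 and 12.9 in BMDM and 1.95, 0.892 and 3.08 in PLF. The libraries of these groups fell into 4 tiers of Dhcr7 with no overlap, BMDM above PLF (2.03 ± 0.46, adjusted p = 0.00215). The log2 fold change was 1.96 ± 0.27 for mexAM against BALF, 1.43 ± 0.32 for BALF against BMDM and 5.42 ± 0.37 for mexAM against PLF, the last resting on 9 counts in PLF.

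Tm7sf2 and Lbr encode the reductases that act on the product of Cyp51. Lbr is also the lamin B receptor of the inner nuclear membrane, so that its RNA serves more than sterol synthesis. Tm7sf2 (ENSMUSG00000024799, chr19:6062821-6068373, minus strand) had 26.1, 29.2 and 25.9 CPM in mexAM, 1.20, 2.03 and 2.32 in BALF, 3.87, 7.54 and 3.06 in BMDM and 2.60, 0 and 0.616 in PLF. Lbr (ENSMUSG00000004880, chr1:181815335-181843046, minus strand) had 55.2, 45.7 and 55.6 CPM in mexAM, 15.02, 12.2 and 6.17 in BALF, 109.7, 84.3 and 83.3 in BMDM and 92.8, 114 and 123 in PLF. Of these 4 groups mexAM alone was high in Tm7sf2, with BALF among the low ones, and the pool cultures were at 22.1 to 26.3 CPM later and 26.98 to 31.4 CPM earlier. In Lbr BALF was below every library of every other group, pools included, and mexAM lay between BALF and the pair of BMDM and PLF.

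The calls followed these levels. Both genes rose in mexAM against BALF, Tm7sf2 by 3.67 ± 0.50 (adjusted p = 3.32e-05) and Lbr by 1.99 ± 0.27 (adjusted p = 3.13e-05). Against BMDM, mexAM was higher in Tm7sf2 (2.59 ± 0.39) and lower in Lbr (-0.75 ± 0.22, adjusted p = 0.00957). Against PLF, mexAM was again higher in Tm7sf2 (4.49 ± 0.52) and lower in Lbr (-1.03 ± 0.22). BALF was lower than BMDM (-2.74 ± 0.26) and PLF (-3.02 ± 0.26) in Lbr, and was not called in Tm7sf2 against either (-1.08 ± 0.63 and 0.82 ± 0.83). Tm7sf2 rests on 7 counts in the 3 BALF libraries and 5 in PLF. It passed the low-count filter only because of mexAM and was not tested in a fit of BMDM and PLF alone. Its exons overlap Vps51 on the same strand, so some reads of Vps51 may be mixed in or dropped as ambiguous.

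The share of Tm7sf2 in the counts of this pair sets both genes against each other within a library, a measure chosen after the values were seen and given with no test. In mexAM it was 32.1%, 39.0% and 31.8%, with exact (Clopper-Pearson) 95% intervals between 24.5% and 47.1%. In BALF it was 7.41%, 14.3% and 27.3%, on 27, 14 and 11 counts, with intervals between 0.910% and 60.97%, so BALF is poorly placed at this depth. In BMDM it was 3.40%, 8.21% and 3.55%, and in PLF 2.72%, 0% and 0.498%, where 0 of 128 counts allows up to 2.34% by the limit of 3 counts and up to 2.84% by the exact interval. The pool cultures had 18.5% and 20.9% at the later passage and 32.2% and 42.6% at the earlier one.

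**Figure D3:**
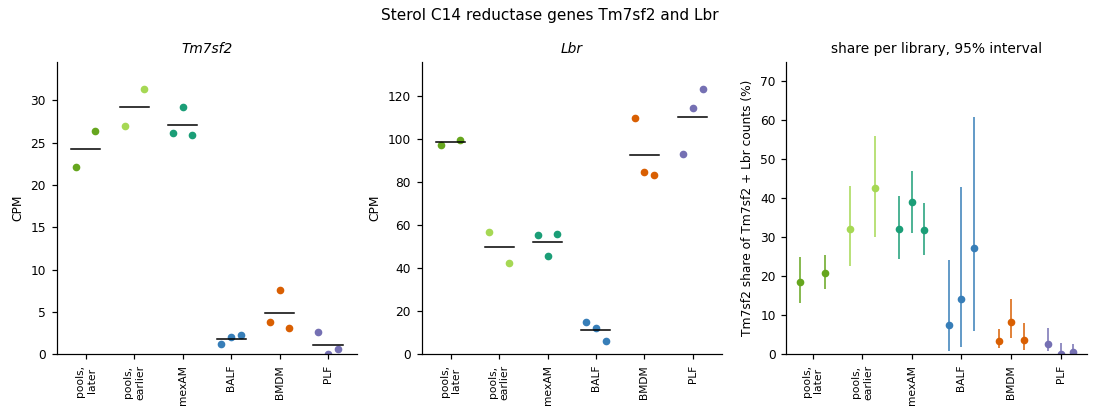
Tm7sf2 (left) and Lbr (middle) in CPM per library with group means as bars, and the share of Tm7sf2 in the summed counts of both (right) with its exact 95% interval, for the 6 groups. Tm7sf2 is at 25.9 to 29.2 CPM in mexAM and at 1.20 to 2.32 in BALF, while Lbr is at 45.7 to 55.6 CPM in mexAM, 6.17 to 15.02 in BALF and 92.8 to 123 in PLF.

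The genes of SREBP2 control moved apart from each other. Srebf2 (ENSMUSG00000022463, chr15:82147181-82205379, plus strand) had 112, 102 and 98.4 CPM in mexAM, 84.7, 109 and 94.9 in BALF, 48.8, 44.6 and 39.8 in BMDM and 57.8, 74.9 and 88.1 in PLF. mexAM and BALF overlapped, and BMDM was lowest in all 3 libraries. In mexAM against BALF it was not called (-0.08 ± 0.19, adjusted p = 0.783), and the fitted sign is opposite to that of the mean CPM, 104 ± 7.05 in mexAM and 96.1 ± 11.97 in BALF (SD, n = 3 each). Srebf2 was higher in BALF than in BMDM (1.39 ± 0.20), and lower in BMDM than in PLF (-0.76 ± 0.20, adjusted p = 0.00559). In BALF against PLF (0.63 ± 0.19, adjusted p = 0.0142) the call was lost with library totals alone (0.38), without BALF of mouse 2 (0.55) or PLF of mouse 1 (0.51) and with BALF of mouse 1 alone (0.46). Its call for mexAM against PLF (0.55 ± 0.19) was lost without mexAM of mouse 1 (0.47), PLF of mouse 1 (0.43) or PLF of mouse 2 (0.53) and in a fit of these 2 groups alone (0.51).

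Scap, the escort, had 30.2, 38.9 and 30.5 CPM in mexAM, 39.6, 35.5 and 32.4 in BALF, 29.01, 21.9 and 28.2 in BMDM and 24.7, 24.1 and 16.6 in PLF. Between mexAM and BALF it was not called (-0.32 ± 0.23, adjusted p = 0.316). BALF was higher than PLF (0.98 ± 0.25) and than BMDM (0.73 ± 0.24, adjusted p = 0.0223). The second call was lost with library totals alone (0.44), with no filter on low counts (0.70), without BALF of mouse 1 (0.63), without BMDM of mouse 2 (0.62) and with BALF of mouse 1 alone (0.88). In mexAM against PLF (0.66 ± 0.24) it was lost under DESeq2 (0.60), in a fit of these 2 groups alone (0.62), without mexAM of mouse 2 (0.51) and without PLF of mouse 4 (0.47).

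Insig1 and Insig2 both hold Scap in the endoplasmic reticulum, and Insig1 is itself a known target of SREBP. Insig1 (ENSMUSG00000045294, chr5:28071363-28078662, plus strand) had 138, 191 and 135 CPM in mexAM, 62.5, 57.8 and 57.1 in BALF, 12.1, 12.3 and 9.81 in BMDM and 7.14, 22.3 and 22.2 in PLF. It stood in tiers like most enzymes, with log2 fold changes of 1.18 ± 0.26 for mexAM against BALF (adjusted p = 0.00254), 2.66 ± 0.31 for BALF against BMDM and 2.06 ± 0.30 for BALF against PLF. Insig2 (ENSMUSG00000003721, chr1:121304353-121332589, minus strand) had 27.9, 26.8 and 31.7 CPM in mexAM, 21.6, 24.4 and 16.98 in BALF, 38.7, 22.6 and 20.8 in BMDM and 20.8, 36.6 and 22.8 in PLF. In Insig2 all mexAM libraries were above all BALF libraries, while BMDM and PLF overlapped both and each other. Its log2 fold changes in the 6 comparisons of these groups ran from -0.11 to 0.26, none called. In mexAM against BALF the difference was 0.26 ± 0.28 with adjusted p = 0.517. The bases printed above hold 1 CCAAT box for Insig1 and 3 for Insig2, at the first of 3 listed starts of Insig2.

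Mbtps1, which encodes the Golgi protease that makes the first cut in SREBP2, was lowest in BALF. It had 54.6, 44.3 and 39.1 CPM in mexAM, 25.8, 25.4 and 24.7 in BALF, 56.1, 53.5 and 60.1 in BMDM and 38.3, 77.6 and 72.7 in PLF. All BALF libraries were below all others. BALF was called lower than BMDM (-0.87 ± 0.25, adjusted p = 0.0108) and PLF (-1.04 ± 0.25, adjusted p = 0.00304), though with BALF of mouse 1 alone neither was (-0.83 and -1.01). In mexAM against BALF it missed the threshold (0.65 ± 0.25, adjusted p = 0.0598), and passed it with library totals alone (0.85), with upper quartile scaling (0.67), without mexAM of mouse 4 (0.78) and in a fit of all 16 libraries (0.65). In mexAM against PLF (-0.39 ± 0.23) it was called only without PLF of mouse 1 (-0.63).

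**Figure D4:**
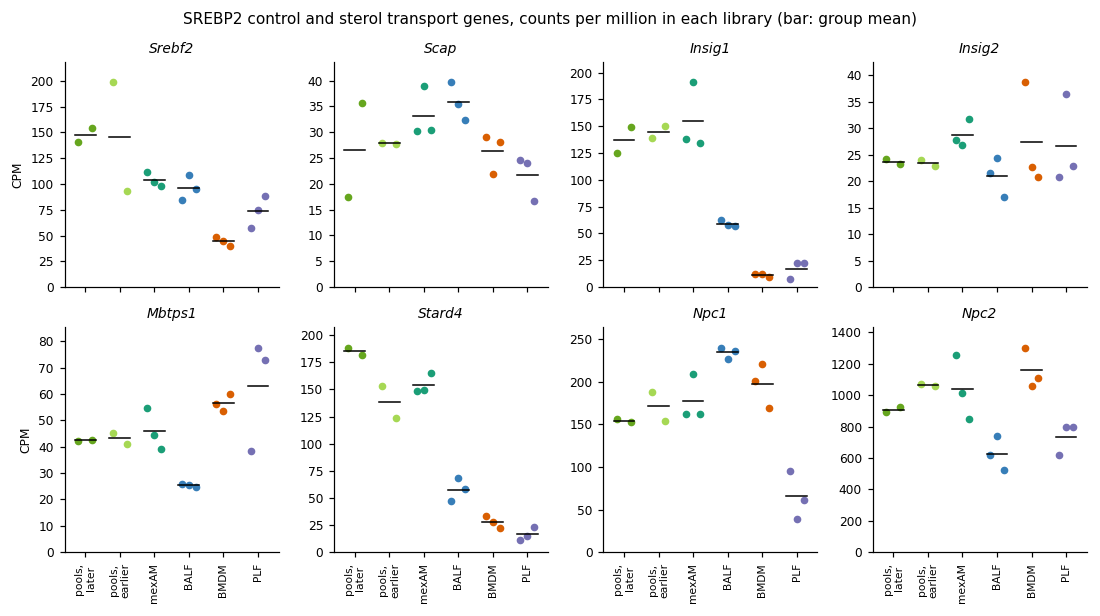
CPM of the 5 control genes and 3 transport genes in each library, with group means as bars and an axis from 0 in each panel. Insig1 lies at 135 to 191 in mexAM, 57.1 to 62.5 in BALF and 9.81 to 12.3 in BMDM, whereas Insig2 lies at 26.8 to 31.7, 16.98 to 24.4 and 20.8 to 38.7 in the same groups.

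Among the transport genes only Stard4 followed the enzymes. Stard4 (ENSMUSG00000024378, chr18:33199355-33213862, minus strand), a soluble carrier of cholesterol between membranes and a known target of SREBP2, had 148, 149.9 and 165 CPM in mexAM, 47.5, 67.98 and 57.9 in BALF, 33.4, 27.4 and 22.1 in BMDM and 11.7, 15.2 and 22.8 in PLF. It was higher in mexAM than in BALF by 1.22 ± 0.22 (adjusted p = 4.09e-04), and in BALF than in BMDM by 1.33 ± 0.23. Npc1 (ENSMUSG00000024413, chr18:12189692-12236400, minus strand), the lysosomal membrane protein that lets cholesterol out of lysosomes, had 162, 209.7 and 162 CPM in mexAM, 240.3, 227 and 236 in BALF, 201, 221 and 169.8 in BMDM and 95.4, 39.2 and 61.6 in PLF. All mexAM libraries were below all BALF libraries, a difference that missed the threshold (-0.60 ± 0.25, adjusted p = 0.0821) and passed it in a fit of the 2 groups alone (-0.64). BALF against BMDM was likewise called only in a fit of those 2 groups (0.53). PLF was lowest, and mexAM, BALF and BMDM were each called above it (1.46 ± 0.27, 2.06 ± 0.27 and 1.52 ± 0.27). Exons of Npc1 overlap Rmc1 on the opposite strand.

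Npc2 (ENSMUSG00000021242, chr12:84754562-84773152, minus strand), which hands cholesterol to Npc1 inside the lysosome, had 1254, 1013 and 848 CPM in mexAM, 622, 738 and 521 in BALF, 1303, 1060.1 and 1109 in BMDM and 617, 796 and 796 in PLF. In mexAM against BALF it missed the threshold (0.53 ± 0.20, adjusted p = 0.0567) and passed it with library totals alone (0.73), upper quartile scaling (0.55), DESeq2 (0.53), a fit of all 16 libraries (0.53) and without mexAM of mouse 4 (0.68). BALF was lower than BMDM (-0.60 ± 0.20), a call that ended without the BALF library of mouse 1 (-0.61) or 4 (-0.50), without BMDM of mouse 1 (-0.54) and with BALF of mouse 1 alone (-0.59). In mexAM against PLF (0.55 ± 0.20) the call was lost with library totals alone (0.50), in a fit of the 2 groups (0.51) and without mexAM of mouse 1 (0.37), PLF of mouse 1 (0.47) or PLF of mouse 2 (0.57).

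BMDM and PLF, the groups with the lowest enzyme levels, were close to each other. The 20 enzymes summed to 517, 482 and 434 CPM in BMDM, against 369, 538 and 464 CPM in PLF, ranges that overlap. None of the 5 first enzymes was called. Higher in BMDM were Fdps (1.51 ± 0.52), Sqle (0.90 ± 0.33), Tm7sf2 (1.90 ± 0.66), Nsdhl (0.70 ± 0.25), Dhcr7 (2.03 ± 0.46), Stard4 (0.69 ± 0.26), Npc1 (1.52 ± 0.27) and Npc2 (0.62 ± 0.20). With mouse as a block the calls of Sqle (0.90, adjusted p = 0.0571), Nsdhl (0.70, adjusted p = 0.0588) and Stard4 (0.71, adjusted p = 0.0553) were lost. Leaving out 1 library ended the call of Fdps without BMDM of mouse 1 or 2 or PLF of mouse 1 or 4 (1.18 to 1.51), and that of Tm7sf2 without BMDM of mouse 2 or PLF of mouse 2 or 4 (1.45 to 1.55). It ended Sqle and Stard4 without BMDM of mouse 1 or 2 or PLF of mouse 1 or 2 (0.63 to 0.90 and 0.51 to 0.70). Nsdhl was lost without any library but BMDM of mouse 2 (0.53 to 0.74), and Npc2 without BMDM of mouse 1 or PLF of mouse 1 or 2 (0.54 to 0.64). Without PLF of mouse 1, Hsd17b7 (-1.19) and Insig1 (-0.96) were called lower in BMDM. Hsd17b7 was also called without BMDM of mouse 1 (-1.45), and Lss without PLF of mouse 2 (1.12).

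Within a group, some libraries held many of the lowest or highest values of the members. PLF of mouse 1 had the lowest CPM of its group for 18 of 28 members and PLF of mouse 2 the highest for 18. In mexAM, mouse 4 was lowest for 17, and in BMDM mouse 4 was lowest for 15. BALF of mouse 2 was highest for 14. Since the members of 1 library share its RNA and depth, these counts describe libraries and are not replicates. The same ranks were not counted over all genes, so they do not set the members apart from other genes.

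The comparison of pool cultures with mexAM asks whether cultures of pooled lavage at known passages differ from those of single mice. The 20 enzymes summed to 3231 and 3699.9 CPM at the later passage and 4333 and 3658 CPM at the earlier passage, against 4465, 4122 and 3759.5 CPM in mexAM. With both passages of a pool summed, edgeR called 0 of 28 members in either direction against mexAM, where 0.519% of all genes were called higher and 0.179% lower. At an unadjusted p under 0.05 there were 5 of 28 members, where 14.1% of all genes were: Pmvk (-0.72 ± 0.26), Fdps (-0.48 ± 0.22), Fdft1 (-0.75 ± 0.28), Lbr (0.69 ± 0.23) and Srebf2 (0.56 ± 0.19), and DESeq2 called 0 members among 187 genes in all. With 2 pools this does not show that the levels are equal. For Hmgcs1 the difference was -0.22 ± 0.22, and for Pmvk all 4 pool libraries (55.7 and 65.2 CPM later, 49.1 and 56.8 CPM earlier) lay below all mexAM libraries.

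In pool cultures against BALF, 17 of 28 members were called higher (13.6% of all genes) and 0 lower (12.4% of all genes), with a median of 1.06, against 0.00 over all genes. All of the first 5 enzymes were among them, with Acat2 at 2.53 ± 0.31, Hmgcs1 at 2.12 ± 0.22 and Mvd at 1.63 ± 0.43. Tm7sf2 (3.61 ± 0.49) and Lbr (2.68 ± 0.27) rose too. Of the control and transport genes Insig1 (1.04 ± 0.27) and Stard4 (1.38 ± 0.22) rose. Fdft1 (0.44 ± 0.31) and Ebp (0.45 ± 0.24), both called in mexAM, were not called here, and whether pools and mexAM differ in them is the comparison given above. Without pool 1 the calls of Mvd (1.66), Sqle (0.89) and Msmo1 (0.76) were lost, and without pool 2 those of Pmvk (1.06), Mvd (1.62), Msmo1 (0.71) and Insig1 (0.94). The call of Mvd also ended without the BALF library of mouse 1 (1.40) or 2 (1.38), and Ggps1 was called lower without BALF of mouse 1 (-0.85). The later passages alone lost Msmo1 (0.57). Npc1 (-0.74 ± 0.27) was called lower under DESeq2 (-0.78), with its size factors (-0.78), with no filter on low counts (-0.71) and with the later passages alone (-0.86). With library totals alone the median of all genes was 0.20, with 2004 genes higher and 959 lower instead of 1446 and 1311, and 21 members were called, Ebp (0.65), Srebf2 (0.67), Mbtps1 (0.76) and Npc2 (0.62) being added. With BALF of mouse 1 alone, Pmvk (1.24), Sqle (1.07), Msmo1 (0.74) and Insig1 (0.94) were not called. This comparison and that of mexAM share the BALF libraries.

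Against BMDM, 21 of 28 members were called higher in the pools (21.2% of all genes) and 0 lower (21.9% of all genes), with a median of 2.79. Idi1 was among them on 37 counts in the pools and 2 in BMDM, a ratio of 15.3 (95% interval 3.94 to 131, counting error only). It did not pass the low-count filter in the fit without the pools, and passed it once they were added. Its call as higher in the pools is therefore no separate support. Fdps and Fdft1 passed the filter in this fit only because of the cultures and BALF, so their calls against BMDM are no separate support either. Lbr was not called (-0.06 ± 0.22), although with the earlier passages alone it was called lower (-0.78). The proliferation markers summed to 1938 to 1997 CPM at the later and 1204 to 1596 CPM at the earlier passage, against 718 to 1013 CPM in mexAM, 297 to 445 in BALF and 230.4 to 675 in BMDM, and their part in these results was not tested.

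No member was called between later and earlier passages. edgeR called 0 of 28 in either direction, where 0.0095% of all genes, 1 gene, were called higher and 0.0% lower. At an unadjusted p under 0.05 there were 2 of 28 members, where 8.996% of all genes were: Lbr (0.91 ± 0.27, adjusted p = 0.345) and Fdps (-0.66 ± 0.27, adjusted p = 0.487), and DESeq2 called 0 members among 32 genes in all. Lbr had 97.3 and 99.5 CPM at the later passage, against 56.8 and 42.3 CPM at the earlier one, so both later libraries were above both earlier ones. Fdps had 50.3 and 73.1 CPM at the later passage, against 96.3 and 90.6 CPM at the earlier one. In CPM, 16 members moved the same way in both pools, 11 lower and 5 higher at the later passage, and 12 moved opposite ways. This was not counted over all genes, so it does not set the members apart from other genes. Srebf2 moved opposite ways, with 141 and 154 CPM later, against 198 and 93.02 CPM earlier. With 1 library per pool and passage, a pool's own drift and its passage cannot be told apart.

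Genes around the pathway, taken from lists that feed it or use its products, followed only in part. In mexAM against BALF, 15.2% of all genes were called higher and 14.8% lower. Supply of acetyl-CoA and NADPH had 7 genes tested in mexAM against BALF, of which 4 rose and 1 fell. Acly, which makes acetyl-CoA from citrate, rose by 2.35 ± 0.25, and Slc25a1, which carries citrate out of mitochondria, by 1.28 ± 0.22. Acss2, which makes acetyl-CoA from acetate, rose by 1.77 ± 0.48 and Idh1, a source of NADPH, by 0.77 ± 0.20, whereas Pgd of the pentose phosphate path fell (-0.90 ± 0.19). Of 11 tested genes of the isoprenoid branch and protein prenylation, 2 rose, Fnta (0.86 ± 0.21) and Rabggta (2.71 ± 0.74), and 0 fell. The value of Rabggta rests on 1, 0 and 2 counts in BALF. Of 10 genes of SREBP processing and sterol-regulated degradation, 0 rose and Syvn1 fell (-1.20 ± 0.29).

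Sterol movement and esterification had 9 genes tested, with 4 higher and 2 lower in mexAM. Gramd1b (3.24 ± 0.46) and Scarb1 (1.36 ± 0.22), both involved in bringing plasma membrane or lipoprotein cholesterol inward, rose, as did Gramd1a (0.93 ± 0.32) and Lima1 (0.72 ± 0.24), and Osbp (-1.13 ± 0.38) and Nceh1 (-0.68 ± 0.21) fell. The value of Gramd1b rests on 2, 1 and 7 counts in BALF. On the side of the oxysterol receptors LXR, 3 of 8 genes rose and 1 fell. The fatty acid genes Scd1 (4.73 ± 0.45) and Fasn (3.34 ± 0.28) and the exporter Abcg1 (1.19 ± 0.27) were higher, and the exporter Abca1 (-2.48 ± 0.38) was lower. Abca1 had 2.90, 3.41 and 9.88 CPM in mexAM, against 20.4, 26.4 and 36.3 CPM in BALF. In BALF against BMDM Abca1 was lower too (-3.02 ± 0.31), so that its libraries ran opposite to the enzymes, at 346, 270.2 and 208 CPM in BMDM.

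The same lists were counted between the other groups. In BALF against BMDM, where 18.2% of all genes were called higher and 19.3% lower, the supply of acetyl-CoA and NADPH had 3 genes higher and 0 lower of 7, sterol movement 3 and 1 of 9, the LXR side 4 and 1 of 8, the isoprenoid branch 1 and 1 of 11 and SREBP processing 0 and 1 of 10. In BALF against PLF, where 19.5% of all genes were called higher and 20.8% lower, the counts were 4 and 0, 5 and 1, 3 and 3, 1 and 2, and 0 and 0 over the same lists. In BMDM against PLF, where 18.4% were called higher and 18.0% lower, they were 2 and 2, 6 and 0, 1 and 2, 1 and 1, and 1 and 2. In pool cultures against BALF, where 13.6% of all genes were called higher and 12.4% lower, all 7 supply genes were called, 4 higher and 3 lower.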

How the data were processed

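Per the labels' protocols, QuantSeq FWD libraries, with molecular identifiers added in second strand synthesis, were made from 150 ng of total RNA, amplified in 15 cycles and read as 65 bp single ends. The authors deposited raw counts per Ensembl gene, on GRCm38 (mm10) per the submitters' processing notes. The sources used here do not give the aligner, the counter, the annotation release, strand use or any collapsing of identifiers. The 5 lines that name no gene were left out. Reads outside genes made up 10.6% to 12.4% of a library in the pools and 13.3% to 15.5% in mexAM. They made up 19.9% to 21.4% in BALF, 20.8% to 28.3% in BMDM and 27.6% to 29.9% in PLF. This share went with the groups, so the 2 cannot be told apart. Gm42418 alone took 38057 to 135778 CPM of a library. The part of the reads outside genes in the results was not tested. Fits without the mitochondrial genes and Gm42418 were run. In mexAM against BALF they called 2985 of 9895 genes, against 3006 of 10011 with them. No member tested both ways changed its call in any comparison. Of 47643 identifiers, 47224 were named with GENCODE M21.

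Tests used edgeR 4.0.16 (quasi-likelihood, TMM, filterByExpr) in R 4.3.3, with DESeq2 1.42.0 as an alternative. BALF, PLF, BMDM and mexAM entered one fit of 12 libraries (10011 genes), the pools one of 14 columns with the passages of a pool summed (10602 genes), and the passages one of 16 libraries (10527 genes). The steps were tested on simulated data. All 28 members are named by rule. The members and lists were chosen with earlier results of these data known. Mouse numbers pair samples because the labels give the same animal; over 18 same-mouse pairs the deviations correlated at -0.118 to 0.220 (median -0.0207), with 2 pairs over 0.1. Replicates of a group differed by more than sampling noise (chi-square per degree of freedom 2.43 to 23.1). Intervals and limits cover counting error only. Promoters are RefSeq windows of GRCm38.p6.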

Additional observations from a re-analysis of the deposited data

How the results depend on the processing

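The 274 results, each 1 member in 1 comparison, were recomputed under the alternative settings. That gave 3947 values: 3812 kept direction and side of the threshold, 107 no longer passed it, 28 newly passed it and 0 reversed. Many of these values come from the same refit and the same libraries, so they are not independent. In BMDM against PLF, 9 members were called in the 12-library fit, 5 under DESeq2 and 3 in a fit of these 2 groups alone. With 1 library left out there were 5 to 8. In the fit of the 2 groups Sqle (0.88), Nsdhl (0.67) and Stard4 (0.67) were tested and not called. Fdps, Tm7sf2 and Dhcr7 had too few counts in both groups to pass the low-count filter there, so they were not tested. Genes that a setting did not test are not among the 107. The cause of the other losses was not tested. Leaving out 1 library gave 18 to 22 members called in mexAM against BALF (20 with all), 21 to 22 in mexAM against BMDM (21), 23 to 25 in mexAM against PLF (25), 18 to 21 in BALF against BMDM (21), 20 to 22 in BALF against PLF (22), 13 to 17 in pool cultures against BALF (17), 21 in pool cultures against BMDM, and 0 in the other pool comparisons. With mouse as a replicate block, the paired fit called 20, 21, 25, 21, 21 and 6 members in the 6 comparisons, in the order of mexAM against BALF, BMDM and PLF, BALF against BMDM and PLF, and BMDM against PLF. It changed the calls of Acat2, Sqle, Nsdhl and Stard4 given above and no other; with pool as the block, 0 members were called between passages. Where a setting leaves 1 library in a group, that library is assumed to vary like the other groups. Members with few counts, such as Idi1 and Tm7sf2, Fdps and Dhcr7 in PLF, are limited by depth.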
